A study of Mus musculus with 6 samples.

Results

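The genes described here are 44 transcripts that mark dividing cells, 33 that peak in the G2 and M phases of the cell cycle and 11 that serve DNA replication in S phase. They were taken from a fixed list of symbols and all 44 were found among the 30406 genes that the 6 single-nucleus RNA-seq libraries of mouse tibial periosteum share. Each library held droplet-captured nuclei from pooled 12-week-old C57BL6 males and females. The uninjured group had 2 libraries of periosteum, each from 4 mice. The fracture groups had 2 libraries at day 3, 1 on day 5 and 1 on day 7 after an open, non-stabilized tibial fracture, and held periosteum together with hematoma or callus from pools of 4 to 9 mice. Because the libraries are pools, the spread between 2 libraries of a group may be technical as much as biological, and the p-values below measure only that spread.

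In a resting tissue most cells sit outside the cell cycle. A cell that enters it first induces the DNA replication machinery, including the MCM helicase, the primase-polymerase Pola1 and the ribonucleotide reductase subunits Rrm1 and Rrm2, and then the genes of chromosome condensation, spindle assembly, chromosome attachment and cytokinesis. Transcription of the G2/M genes is known to be held down in quiescent cells and released late in the cycle through promoter elements that include the cell cycle genes homology region, abbreviated CHR, and CCAAT boxes. Expansion of periosteal cells within days of a fracture is a known step in the building of the callus.

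The starts of the genes carried these elements to a differing extent. Of the 44 genes, 39 had a promoter in the RefSeq table (GRCm38.p6), taken as the 250 bases before and 50 bases after the start of the gene. Smc4, Aurkb, Tpx2, Ccna2 and Atad2 had no entry. The letters of a CHR, TTTGAA or TTTAAA on either strand, were found in 26 of 29 G2/M promoters (89.7%) and in 2 of 10 S phase promoters (20%), against 27.8% of all 27025 promoters in the table. CCAAT on either strand was found in 23 of the 29 (79.3%) and 9 of the 10 (90%), against 37.9% of all. TTTCCCGC or TTTGGCGC on either strand, the letters of a site for E2F factors, which drive S phase genes, were found in 2 of the 29 (6.90%) and 5 of the 10 (50%), against 1.63% of all. No match of any of these motifs overlapped a match of another in the 39 promoters. A match is only a run of letters, and binding was not measured. The relation of a motif to the change at day 3 was not tested. The promoters of 4 G2/M genes that were nearly silent in uninjured stromal nuclei (Cdk1, Top2a, Ccnb1 and Mki67) are printed 5′ to 3′ with those of 2 S phase genes whose change at day 3 did not pass the test (Mcm6 and Pola1). Ccnb1 was itself too sparse for the main test in stromal nuclei. The capitals mark every match to the 3 motifs.
Cdk1 (chr10:69352863-69353162, - strand): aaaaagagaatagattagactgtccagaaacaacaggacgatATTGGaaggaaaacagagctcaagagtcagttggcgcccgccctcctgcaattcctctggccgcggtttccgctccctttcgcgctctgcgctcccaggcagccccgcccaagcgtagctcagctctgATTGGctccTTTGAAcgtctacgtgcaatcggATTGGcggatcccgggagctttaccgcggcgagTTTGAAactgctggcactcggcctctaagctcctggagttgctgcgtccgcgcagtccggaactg
Top2a (chr11:99024140-99024439, - strand): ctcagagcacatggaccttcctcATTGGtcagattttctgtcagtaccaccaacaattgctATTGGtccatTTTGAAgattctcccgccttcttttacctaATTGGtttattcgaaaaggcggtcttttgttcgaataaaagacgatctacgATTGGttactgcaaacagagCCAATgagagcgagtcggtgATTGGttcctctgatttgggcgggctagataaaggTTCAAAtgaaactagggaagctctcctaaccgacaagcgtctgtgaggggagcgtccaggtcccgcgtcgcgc
Ccnb1 (chr13:100786437-100786736, - strand): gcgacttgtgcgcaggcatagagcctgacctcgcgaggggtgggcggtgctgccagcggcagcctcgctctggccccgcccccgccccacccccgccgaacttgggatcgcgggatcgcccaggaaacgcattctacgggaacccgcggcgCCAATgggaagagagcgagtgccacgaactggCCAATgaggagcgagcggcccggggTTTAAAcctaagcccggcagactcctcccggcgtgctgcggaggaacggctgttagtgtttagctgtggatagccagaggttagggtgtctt
Mki67 (chr7:135716330-135716629, - strand): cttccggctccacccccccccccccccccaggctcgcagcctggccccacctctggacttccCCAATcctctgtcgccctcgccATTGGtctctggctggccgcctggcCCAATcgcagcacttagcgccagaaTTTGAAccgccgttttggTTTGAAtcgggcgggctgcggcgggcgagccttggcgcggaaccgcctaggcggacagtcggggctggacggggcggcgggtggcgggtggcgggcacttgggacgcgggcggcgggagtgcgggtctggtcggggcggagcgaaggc
Mcm6 (chr1:128359656-128359955, - strand): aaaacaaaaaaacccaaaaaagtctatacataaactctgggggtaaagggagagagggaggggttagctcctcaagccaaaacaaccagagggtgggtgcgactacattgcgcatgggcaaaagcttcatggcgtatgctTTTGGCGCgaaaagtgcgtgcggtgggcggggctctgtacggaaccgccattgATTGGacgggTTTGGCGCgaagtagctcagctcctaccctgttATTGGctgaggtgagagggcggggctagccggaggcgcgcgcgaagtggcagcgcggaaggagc
Pola1 (chrX:93632106-93632405, - strand): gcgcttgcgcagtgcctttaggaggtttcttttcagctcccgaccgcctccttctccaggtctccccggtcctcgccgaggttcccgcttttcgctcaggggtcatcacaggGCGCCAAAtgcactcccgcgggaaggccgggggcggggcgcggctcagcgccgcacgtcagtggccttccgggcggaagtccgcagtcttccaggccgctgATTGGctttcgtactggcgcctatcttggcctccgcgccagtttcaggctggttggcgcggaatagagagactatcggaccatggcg
In the 4 G2/M promoters every capital run is a CHR or a CCAAT box, whereas Mcm6 holds 2 E2F matches and Pola1 holds 1, with no CHR in either.

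Of 13551 barcodes with 55293921 UMIs (unique molecular identifiers, each standing for 1 captured RNA molecule), 6296 nuclei were kept after filters on gene number, mitochondrial and ribosomal share and muscle markers, 355 to 2104 per library. They fell into 24 clusters before the removal of 1 myogenic-like cluster. The genes of the list were left out of the clustering genes, and cell cycle scores were regressed out. It was thus largely set in advance that none of the 24 had a gene of the list among its 10 leading genes. With cell cycle scores not regressed, a cluster led by Diaph3 had 5 of them, as did a cluster led by Col5a3 with no upper limit on genes. Median UMIs per kept nucleus ran from 1144.5 in uninjured library 1 to 3651 in day 3 library 2, so that shares of positive nuclei are given after 500 UMIs were drawn at random from each nucleus. Stromal nuclei, taken as the SSPC-like (skeletal stem/progenitor), fibroblast-like, IIFC-like (injury-induced fibrogenic), osteoblast-like and chondrocyte-like clusters together, numbered 125 and 337 before injury, 111 and 249 at day 3, 1013 on day 5 and 661 on day 7. Levels are given as CPM, the UMIs of a gene scaled to the total of all UMIs of the same nuclei. Uninjured library 1, day 5 and day 7 were counted with Cell Ranger 6.0.0 and the others with 7.1.0, so that day 3 shares its version with uninjured library 2, and days 5 and 7 share theirs with uninjured library 1. Between pairs of libraries 0 to 7 barcodes were the same.

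In all kept nuclei, the list was low before injury and higher at day 3. The summed level of the 33 G2/M genes was 225 and 192 CPM before injury, 2182 and 1058 at day 3, 1295 on day 5 and 730 on day 7. The uninjured and day 3 libraries did not overlap, and the 2 day 3 libraries themselves differed, library 2 lying at 0.485 times library 1 (95% Poisson interval 0.461 to 0.510). Both day 3 libraries lay above both uninjured libraries for 44 of the 44 genes, as they did for 27.3% of the 12668 genes tested. In these summed counts more dividing cells and more RNA per dividing cell cannot be told apart.

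In edgeR's quasi-likelihood test on the counts summed per library, 27 of the 44 rose in all kept nuclei and none fell, where 2.89% of all genes tested rose and 6.18% fell. DESeq2 called 34 of the 44 as higher, against 5.12% of 12668 genes, and edgeR without a filter on low counts 39, against 5.32% of 23449 genes. The 3 largest changes were those of Hmmr, the hyaluronan-mediated motility receptor of the spindle (log2 fold change 6.96 ± 1.05 SE, adjusted p = 0.0213), Aspm, a spindle pole protein (6.46 ± 1.00, adjusted p = 0.0232), and Nuf2, a kinetochore protein (5.64 ± 1.25, adjusted p = 0.0447). Smc4 of the condensin complex (0.68 ± 0.40, adjusted p = 0.363), Rrm1 (1.10 ± 0.42, adjusted p = 0.163) and the helicase subunit Mcm6 (1.18 ± 0.45, adjusted p = 0.159) had the 3 smallest and did not pass. Leaving out uninjured library 1, which leaves libraries of a single software version, left none of the 44 called at a median log2 fold change of 3.49, and only 11 of all 14844 genes were then called. The median log2 fold change was 3.79 without uninjured library 2, 2.74 without day 3 library 1 and 4.16 without day 3 library 2. The range of the counts with 1 library left out is given below.

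The rise was seen in stromal nuclei, where the genes were close to the limit of counting before injury. The 2 uninjured libraries together held 295 UMIs of the 33 G2/M genes in 462 nuclei, and the summed level was 270 and 156 CPM, against 2540 and 1912 at day 3, 1228 on day 5 and 763 on day 7. Of the 44 genes, 39 had enough counts to be tested and 33 of these rose, 27 of them G2/M genes and 6 S phase genes, with none lower. Both day 3 libraries lay above both uninjured ones for 43 of the 44 genes, the exception being Pola1, against 28.7% of the genes tested. The median log2 fold change over the 39 was 4.14, against 0.04 over all 9712 genes tested, of which 4.21% rose and 5.41% fell. A gene that was counted only after injury could enter this test only by differing, so the fit without a filter on low counts bears on the full list. There 38 of the 44 rose, against 3.01% of 19840 genes, and Ccna2, Rrm1, Rrm2, Mcm3, Mcm6 and Pola1 did not. DESeq2 called 25 of the 36 it tested, against 3.06% of 9337 genes. The counts depended on the libraries, and their range with 1 library left out is given below. Each of those fits leaves 1 library in a group and tests a different set of genes, so only the size of the change is read here. The median log2 fold change over the genes of the list that were tested was 4.27 without uninjured library 1 and 3.54 without uninjured library 2. It was 3.81 without day 3 library 1 and 3.88 without day 3 library 2.

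**Figure D1:**
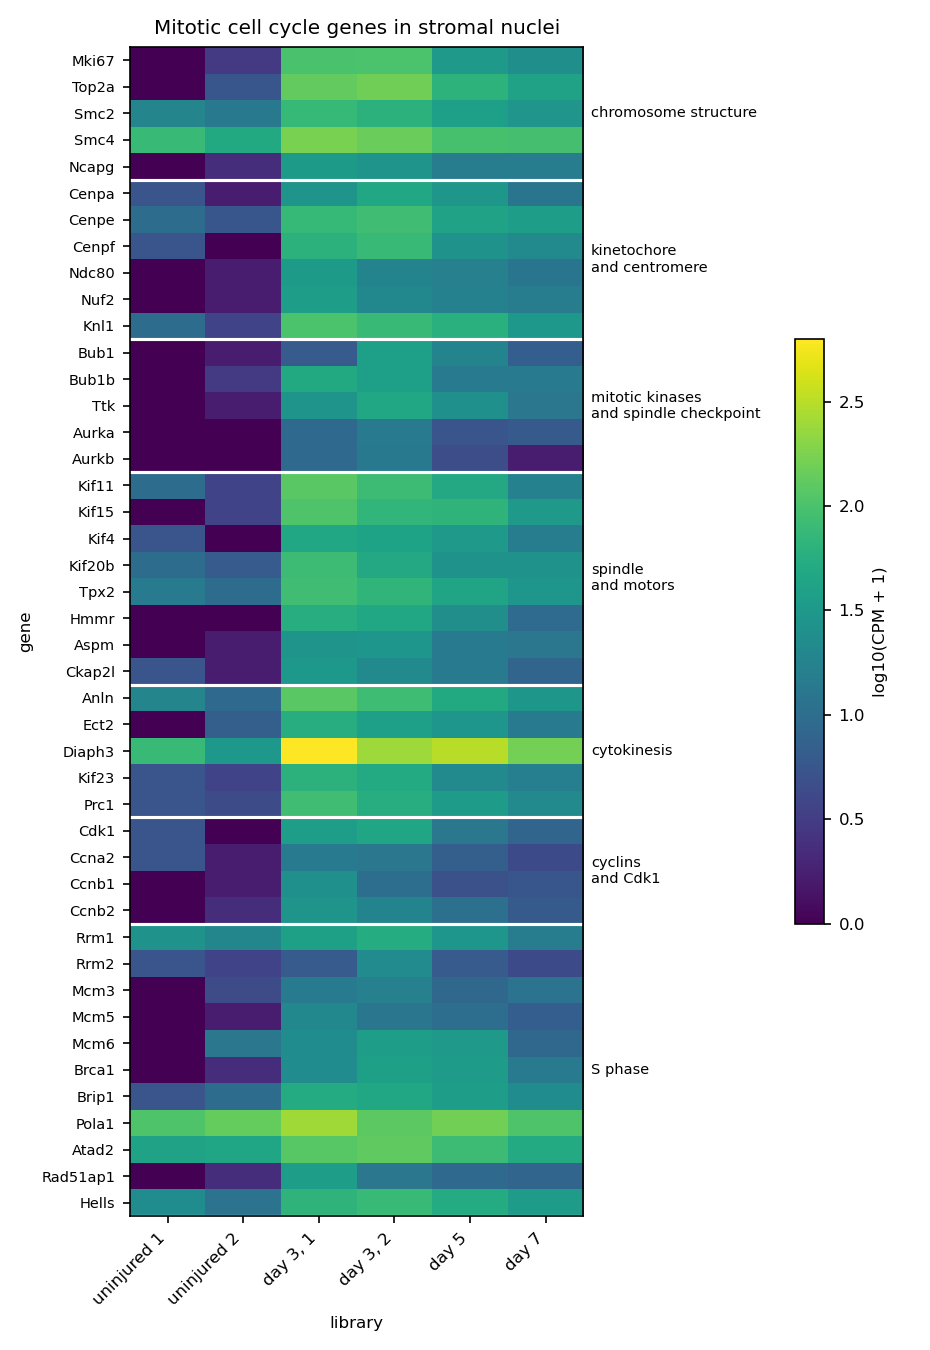
Level of each of the 44 genes in stromal nuclei by library, as log10(CPM + 1) on the color scale, with the genes in rows grouped by role. The 2 uninjured columns are darkest for the mitotic kinases, which summed to 0 and 3.34 CPM there, the day 3 columns are brightest, and Diaph3, Pola1 and Smc4 stand out in every library.

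Genes of chromosome structure were among the clearest. Mki67, which coats mitotic chromosomes and is the standard marker of proliferation (chr7:135689784-135716361, minus strand, GRCm38), was at 0 and 2.00 CPM in the uninjured stromal libraries, 97.8 and 101 at day 3, 31.2 on day 5 and 23.7 on day 7. Top2a, the topoisomerase that untangles sister chromatids (chr11:98992943-99024189, minus strand), was at 0 and 4.67, then 133 and 156, 64.1 and 40.2. For both genes the uninjured and day 3 libraries were far apart, and days 5 and 7 lay between them. The log2 fold change at day 3 was 5.76 ± 0.68 for Mki67 (adjusted p = 0.0014) and 5.16 ± 0.59 for Top2a (adjusted p = 0.00119). As counts, Mki67 went from 3 UMIs to 213, a ratio of 57.9 with a 95% counting interval of 19.5 to 283. The condensin genes Smc2 and Ncapg also rose (log2 fold changes 2.21 and 4.52), whereas Smc4 was already at 75.2 and 49.4 CPM before injury and reached 171 and 144 at day 3 (log2 fold change 1.38 ± 0.40, adjusted p = 0.0598). Smc4 passed in the fit without a filter (adjusted p = 0.0272).

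All 6 genes of the kinetochore and centromere, where chromosomes attach to the spindle, rose in stromal nuclei, with log2 fold changes from 3.78 for the motor Cenpe to 6.47 for Cenpf. Cenpf, a large protein of the outer kinetochore, was at 4.42 and 0 CPM before injury, 62.5 and 75.03 at day 3, 26.5 on day 5 and 21.1 on day 7 (log2 fold change 6.47 ± 1.03, adjusted p = 0.00533). It was counted once in the uninjured nuclei and 154 times at day 3, a ratio of 126 with a counting interval of 22.2 to 4993. Cenpa, the histone variant of the centromere, was counted 2 and 90 times, and Knl1, a scaffold for checkpoint proteins, 6 and 174 times.

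The mitotic kinases were the sparsest group, with 5 UMIs in all over the 2 uninjured libraries for 5 genes. Aurka and Aurkb, the Aurora kinases of the spindle poles and of the chromosomal passenger complex, were at 0 in both uninjured libraries. Aurkb was at 8.15 and 12.6 CPM at day 3, 3.55 on day 5 and 0.658 on day 7. Measured against a floor of 3 UMIs over the uninjured group, Aurka was at least 7.07-fold and Aurkb at least 6.797-fold higher at day 3. Bub1, which holds the spindle checkpoint, was at 0 and 0.668 CPM before injury and at 5.43 and 37.2 at day 3, 17.4 on day 5 and 5.92 on day 7, so that the 2 day 3 libraries differed widely. These 3 kinases were too sparse for the main test and passed in the fit without a filter (adjusted p = 0.0018 for Bub1, 0.0315 for Aurka and 0.0358 for Aurkb). Bub1b and Ttk, the checkpoint kinases that were tested, rose (log2 fold changes 4.52 ± 0.85 and 5.71 ± 0.95).

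Of the spindle proteins and kinesin motors all 8 rose in stromal nuclei. Hmmr had the largest fitted change of the list. It was at 0 in both uninjured libraries, 54.3 and 47.0 CPM at day 3, 23.4 on day 5 and 8.56 on day 7 (adjusted p = 0.0043). Its fitted log2 fold change of 8.64 rests on a prior count, and the counts alone, 0 against 102 UMIs, put it at least 27.7-fold higher. Kif11, the motor that pushes the spindle poles apart, was at 8.84 and 2.67 before injury, then at 120 and 82.5, 47.5 and 15.8 CPM (log2 fold change 4.66 ± 0.69, adjusted p = 0.00404). Kif15, which assists it, was at 0 and 2.67, then 106 and 69.3, 64.8 and 30.9 (5.20 ± 0.75, adjusted p = 0.00365). Both motors separated the uninjured from the day 3 libraries without overlap. Kif4, a chromosome-bound motor, had the third largest fitted change (5.796 ± 1.13, adjusted p = 0.0127).

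The 5 cytokinesis genes rose, with log2 fold changes from 3.18 for Ect2 to 4.24 for Prc1. Anln, the anillin scaffold of the contractile ring, went from 17.7 and 8.01 CPM to 120 and 84.2 at day 3, then 48.9 and 29.0 (log2 fold change 3.26 ± 0.59, adjusted p = 0.00893). Ect2, the exchange factor that activates RhoA at the division plane, went from 0 and 6.01 to 54.3 and 37.2, then 28.4 and 13.2 (3.18 ± 0.77, adjusted p = 0.0294). On days 5 and 7 both lay between the day 3 and the uninjured libraries. Diaph3, a formin that nucleates actin and the longest gene of the list (chr14:86655367-87141235, minus strand), went from 75.2 and 30.0 to 628 and 243, then 313 and 162 (3.26 ± 0.63, adjusted p = 0.0121). It was the most abundant gene of the list in stromal nuclei at day 3, day 5 and day 7, and the 2 day 3 libraries were far apart on it. Without Diaph3 the summed G2/M level in stromal nuclei was still 195 and 126 CPM before injury, 1912 and 1669 at day 3, 915 on day 5 and 601 on day 7.

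Cdk1, the kinase that triggers mitosis, and its cyclins were scarce in nuclei. Cdk1 was at 4.42 and 0 CPM before injury, 35.3 and 44.7 at day 3, 11.8 on day 5 and 7.24 on day 7 (log2 fold change 5.68 ± 1.13, adjusted p = 0.0133). It was counted once before injury and 91 times at day 3, a ratio of 74.2 with a counting interval of 12.99 to 2964. Ccnb1, cyclin B1, was at 0 and 0.668, then 24.4 and 9.16, 3.92 and 4.61, and passed only in the fit without a filter (adjusted p = 0.0406). Ccnb2 rose (4.05 ± 0.98, adjusted p = 0.0291), while cyclin A2, Ccna2, did not pass in either fit (3.14 ± 1.04 with the filter, adjusted p = 0.0954).

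Of the 11 S phase genes, 6 rose in stromal nuclei. Their summed level went from 203 and 240 CPM to 636 and 562 at day 3, 448 on day 5 and 273 on day 7. The ratio of the day 3 to the uninjured counts had a median of 5.71 over the 11 S phase genes and of 22.3 over the 33 G2/M genes, with genes at 0 before injury set at their bound. Brip1, a helicase that works with Brca1, was at 4.42 and 8.68 CPM, then 51.6 and 45.2, 34.9 and 21.7 (log2 fold change 2.60 ± 0.62, adjusted p = 0.0281). Atad2, a chromatin-bound ATPase, was at 39.8 and 43.4, then 117 and 130, 81.8 and 50.7 (1.52 ± 0.38, adjusted p = 0.0325). Brca1 itself, Hells, Mcm5 and Rad51ap1 were the others, with log2 fold changes from 2.31 to 4.59. Neither of the 2 genes shown in full overlapped between uninjured and day 3 libraries.

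The other 5 S phase genes did not pass in either fit. Pola1, the catalytic subunit of DNA polymerase alpha (chrX:93304767-93632155, minus strand), was the one gene of the 44 whose stromal libraries overlapped, at 106 and 138 CPM before injury, 247 and 123 at day 3, 157 on day 5 and 105 on day 7. Its log2 fold change was 0.57 ± 0.45 (adjusted p = 0.529). Rrm2, whose subunit limits nucleotide supply, was at 4.42 and 2.67, then 5.43 and 21.2, 5.42 and 3.29 (adjusted p = 0.327 without a filter), and Mcm6 was at 0 and 12.0, then 21.7 and 36.1, 30.6 and 7.90 (1.67 ± 0.75, adjusted p = 0.226). The remaining 2, Rrm1 and Mcm3, had log2 fold changes of 1.10 and 2.32. For Pola1 the ratio of day 3 to uninjured counts was 1.09, with a counting interval of 0.912 to 1.29.

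Levels between genes were read per length, because longer genes tended to have more nuclear UMIs. The genes ran from 5.906 kb (Rrm2) to 485.869 kb (Diaph3) with a median of 31.6 kb. Spearman's correlation of the stromal level with gene length over the 44 genes was 0.673 at day 3 and 0.422 before injury, as a description across genes that share their libraries. Per kb of gene at day 3, Diaph3 ranked 31 of 44 instead of 1, and Smc4, Top2a and Cenpa were the 3 highest, with Top2a at 4.62 CPM per kb. Pola1 and Brip1 were likewise long genes. Ncapg, Kif4, Ckap2l, Prc1 and Ccna2 overlap a counted gene on the opposite strand, and whether the counting used strand is not given in the sources used here.

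**Figure D2:**
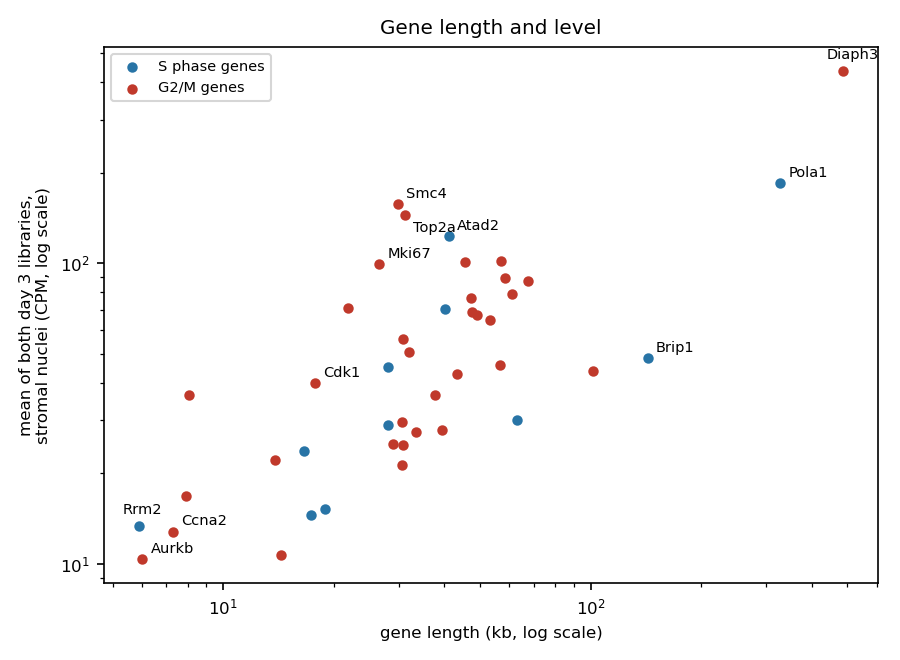
Mean level of each gene over the 2 day 3 libraries in stromal nuclei, in CPM, against the length of the gene in kb, both on log axes, with G2/M genes in red and S phase genes in blue. Longer genes tend to lie higher (Spearman 0.673, n = 44), and Diaph3 and Pola1 are at the far right.

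Counted per nucleus, the G2/M genes were found together. With 500 UMIs drawn from each nucleus, at least 2 different G2/M genes were seen in 0.8% of 125 and 0.297% of 337 uninjured stromal nuclei, in 23.4% of 111 and 18.5% of 249 at day 3, in 9.67% on day 5 (95% exact binomial interval 7.92 to 11.7%) and in 4.54% on day 7 (3.08 to 6.42%). The mean was 0.548% ± 0.356 (SD, n = 2) before injury and 20.9% ± 3.50 (SD, n = 2) at day 3, a difference of 20.4 points that exceeded the spread, though an exact permutation test of 2 against 2 libraries cannot give a p below 0.333. In each uninjured stromal group this was 1 nucleus. At day 5, 1.58% of stromal nuclei held 5 or more different G2/M genes among their 500 UMIs and the highest number was 8. As background, nuclei removed for their muscle markers passed the same criterion in 0, 0, 0.2695, 4.07, 0.797 and 0% of nuclei in the order uninjured 1 and 2, day 3 1 and 2, day 5 and day 7, at median depths of 1678 to 6743 UMIs before drawing, against 1470 to 5405 in stromal nuclei. The stromal shares after injury lay above the muscle background of the same library in every case.

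**Figure D3:**
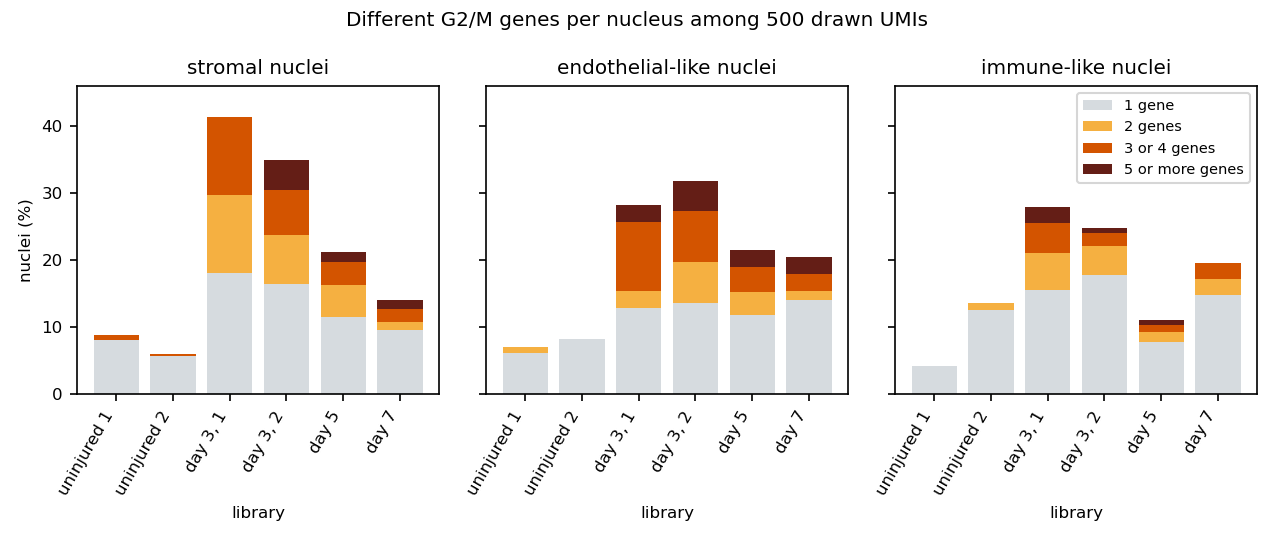
Share of nuclei with 1, 2, 3 or 4, and 5 or more different G2/M genes among 500 drawn UMIs, by library, as stacked bars from 0 for stromal, endothelial-like and immune-like nuclei. In stromal nuclei the bars of day 3 reach 41.4% and 34.9%, against 8.80% and 5.93% before injury.

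At least 1 S phase gene was seen in 11.2 and 10.4% of uninjured stromal nuclei, 22.5 and 22.1% at day 3, 17.5% on day 5 and 9.38% on day 7, a mean difference at day 3 of 11.5 points with no overlap between the groups, while day 7 lay below both uninjured libraries. The muscle background of this looser measure was higher, at 2.52 to 10.6%. Nuclei that held at least 2 G2/M genes were set against the rest for the share that also held an S phase gene. Over all kept nuclei it was 42.9% against 17.1% in day 3 library 1, 44.1% against 13.9% in day 3 library 2, 39.8% against 12.7% at day 5 and 49.0% against 10.1% at day 7.

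Nuclei called positive on the list were also high in cell cycle genes that the list does not contain. A set of 52 other G2/M genes, such as Cep55 and Dlgap5, summed to 4925 and 5083 CPM in the positive stromal nuclei of day 3, against 735 and 832 in the other stromal nuclei of the same libraries. At day 5 the values were 4744 and 574 and at day 7 they were 4995 and 410. Other S phase genes (53 genes) showed a smaller gap, 2472 against 1381 and 2818 against 1247 at day 3. A set of 15 cell cycle inhibitors and quiescence genes lay at 655 against 582 and 798 against 872, which is close to equal. Positive nuclei of day 3 library 2 and day 5 held more UMIs than the others in the stroma, with medians of 6314 against 5198 and 5879 against 4020, and the part of depth in these differences was not tested.

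The list was unevenly spread over the stromal clusters. In SSPC-like nuclei, the share with at least 2 G2/M genes was 0 of 25 (which allows up to 12.0%) and 1.35% of 74 before injury, 42.4% of 33 and 34.6% of 52 at day 3, 11.5% of 61 at day 5 and 5.77% of 52 at day 7. In fibroblast-like nuclei it was 0 of 89 and 0 of 185 (up to 3.37% and 1.62%), then 15% of 60 and 9.70% of 134, 2.72% of 257 and 2.13% of 141. In both day 3 libraries the SSPC-like share was the higher of these 2, and with 2 libraries the difference was not tested. The SSPC-like cluster, which was led by Opcml, Pi16 and Dpp4, held little of its defining markers after injury. Pi16 was at 3715 and 1239 CPM in its uninjured nuclei and at 0 and 95.5 at day 3, and Dpp4 was at 1025 and 1239 before injury and at 0 and 33.7 at day 3. The name thus rests on the uninjured nuclei, and the day 3 nuclei are better described as those that clustered with them. How many did so depended on the clustering. At the lower resolution tried as an alternative, the SSPC-like cluster held 6 and 9 nuclei of day 3 in place of 33 and 52. It held 7 and 6 with cell cycle scores not regressed, and 7 and 22 with no upper limit on genes. The SSPC-like shares were read in the main clustering only. Col3a1, a collagen gene that served as a marker of IIFCs, was at 820 and 1458 CPM in the uninjured nuclei of this cluster and at 1465 and 4539 in those of day 3.

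IIFC-like nuclei, whose leading genes included the matrix genes Tnn, Tnc and Postn, showed another course in the main clustering. Before injury only 2 and 3 of them were present. Those held 23 and 7 UMIs of the G2/M genes (8373 and 214 CPM), and the 23 were part of the 61 in all stromal nuclei of uninjured library 1. Their summed G2/M level was 539 and 783 CPM in the 10 and 31 nuclei of day 3, 1310 in the 379 of day 5 and 457 in the 187 of day 7. The share with at least 2 G2/M genes was 10.0% and 9.68%, then 12.4% (9.26 to 16.1%) and 3.74% (1.52 to 7.56%). At day 3 the intervals of these small groups, 0.253 to 44.5% and 2.04 to 25.8%, span the day 5 value. The size of these groups also depended on the clustering. IIFC-like nuclei of day 3 numbered 35 and 73 at the lower resolution and 28 and 80 with no upper limit on genes. With cell cycle scores not regressed, they numbered 1 and 11 in a Brinp3-led cluster and 4 and 10 in a Diaph3-led one. Whether the course holds under those clusterings was not tested. The level at day 7 was 0.349 times that at day 5 (Poisson interval 0.303 to 0.401).

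Osteoblast-like nuclei numbered 6 and 25 at day 3. In library 2 they reached 4071 CPM, with 9 of 25 nuclei positive (36.0%, interval 17.97 to 57.5%), and in library 1 they were at 734. They were at 1114 on day 5 and 1655 on day 7, so that day 7 was 1.49 times day 5 (1.20 to 1.82). Chondrocyte-like nuclei numbered 2 to 7 in each library before day 5. They were at 1905 CPM at day 5, with 17.0% of 165 nuclei positive (11.6 to 23.6%), and at 847 at day 7, with 5.06% of 237 (2.64 to 8.68%). Pericyte and smooth muscle-like nuclei, which lie outside the stromal group, were at 263 and 95.9 before injury and reached 3174 CPM at day 5, with 25% of 76 nuclei positive (15.8 to 36.3%). At day 7 they were at 2100, with 15.2% of 33 positive, and at day 3 only 4 and 9 of them were present.

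**Figure D4:**
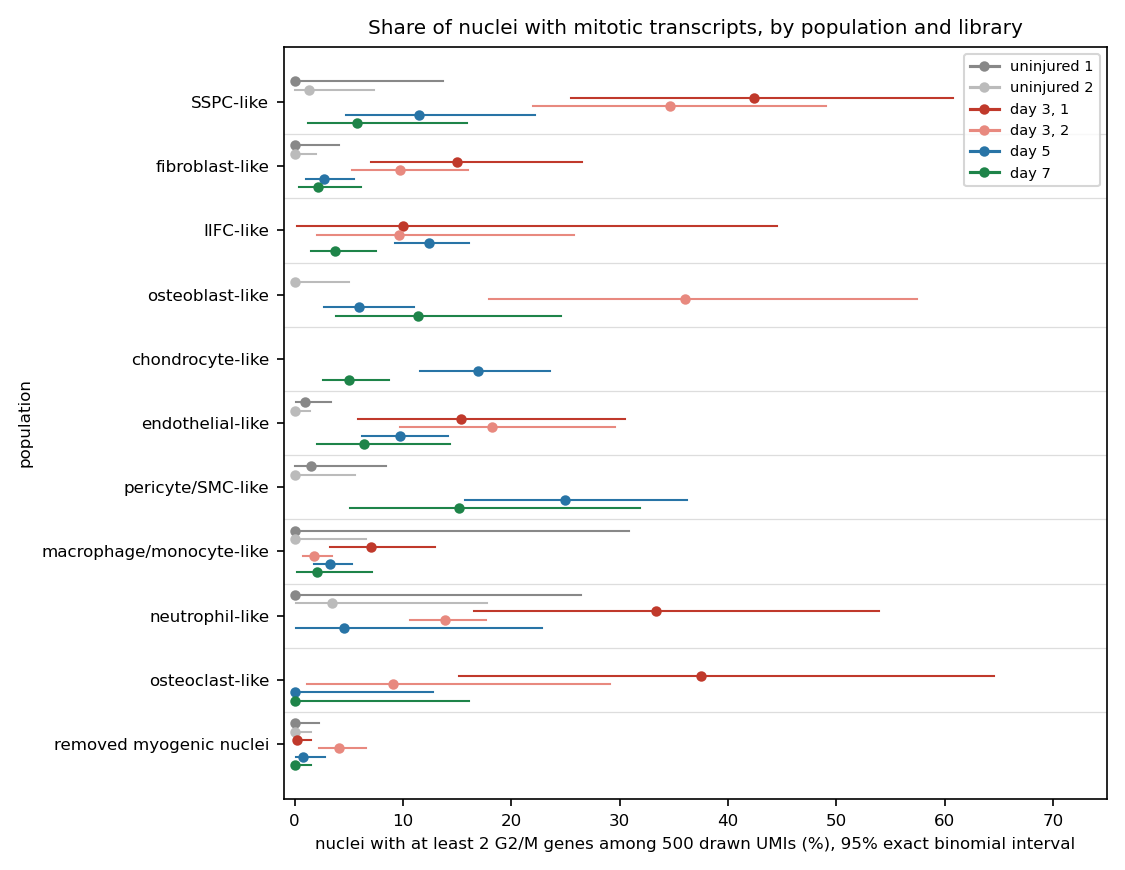
Share of nuclei with at least 2 G2/M genes among 500 drawn UMIs, in percent, by population and library, as points with 95% exact binomial intervals. Libraries with under 10 nuclei of a population are not drawn. In the main clustering, the SSPC-like shares of day 3 (42.4% and 34.6%) lie to the right of every uninjured point, as do day 3 shares of other populations. The SSPC-like nuclei of day 3 held little Pi16 or Dpp4, and their name rests on the uninjured nuclei of the cluster. The removed myogenic nuclei stay at or below 4.07%.

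After day 3 the levels in the stroma were lower. In stromal nuclei the day 5 library lay below both day 3 libraries for 38 of the 44 genes, day 7 below day 5 for 40, and day 7 still above both uninjured libraries for 39. The share of all genes in each of these orders was not computed, so how unusual these counts are is not known. The summed G2/M level at day 5 was 0.483 (0.451 to 0.518) and 0.642 (0.616 to 0.670) times that of the 2 day 3 libraries, and at day 7 it was 0.621 times that at day 5 (0.583 to 0.662). These intervals cover counting error only, and with 1 library at each of days 5 and 7 the change has no replicate check. For Kif11 (0.333, 0.209 to 0.507), Knl1 (0.520, 0.373 to 0.710), Diaph3 (0.518, 0.451 to 0.593) and Kif15 (0.477, 0.344 to 0.649), the ratio of day 7 to day 5 lay below 1 with its counting interval. Those for Smc4 (0.975, 0.804 to 1.18) and Cenpe (0.914, 0.667 to 1.24) did not exclude 1. Neither did those for many other genes of the list, Mki67, Cenpf and Cdk1 among them. The clusters that made up the stroma also changed, since the Fgf7-led fibroblast-like cluster was the largest in the uninjured and day 3 libraries, the IIFC-like cluster at day 5 and the chondrocyte-like cluster at day 7. Within fibroblast-like nuclei alone the summed G2/M level was 167 and 97.1 before injury, 2169 and 1153 at day 3, 535 on day 5 and 563 on day 7, so that day 7 was 1.05 times day 5 (0.893 to 1.24).

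Endothelial-like nuclei rose with the stroma. Their summed G2/M level was 221 and 188 CPM before injury, 2088 and 1598 at day 3, 1612 on day 5 and 818 on day 7. The test called 21 of the 30 genes that passed the filter as higher and none as lower, where 1.95% of 7169 genes rose and 2.01% fell. Scaled by library totals in place of TMM, the median of all genes in these nuclei shifted from -0.02 to 0.12 on the log2 scale, and the genes called over the whole table went from 140 higher and 144 lower to 141 higher and 88 lower, with 21 genes of the list higher under both. Both day 3 libraries lay above both uninjured ones for 36 of the 44, against 28.5% of the genes tested. Without a filter 26 of the 44 rose, against 1.7% of 18169 genes, and DESeq2 called 18 of 30, against 1.58% of 7169. The count of 21 became 3 without day 3 library 1 and 0 without day 3 library 2, which leave 66 and 39 endothelial-like nuclei at day 3. Ttk, Cdk1 and Bub1 had the largest fitted changes (log2 fold changes 7.68, 7.37 and 7.08, adjusted p = 0.0196, 0.0209 and 0.0252). All 3 were at 0 in both uninjured libraries. They could thus enter this test only by differing, and their fitted changes rest on a prior count. The fit without a filter bears on the full list. Cdk1 was at 43.3 and 37.4 CPM at day 3, and by counts it was at least 20.6-fold higher. Top2a was at 0 and 0.836, then 119 and 86.5, 104 and 23.8 (6.79 ± 0.83, adjusted p = 0.0125). Hells, a chromatin remodeler of S phase, was at 4.75 and 6.69, then 86.6 and 112, 59.7 and 39.7 (3.91 ± 0.55, adjusted p = 0.0172).

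Smc4 had the smallest change in the endothelial-like nuclei. It was at 138 and 104 CPM before injury, 108 and 155 at day 3, 135 on day 5 and 63.5 on day 7, so that the groups overlapped, and its log2 fold change was 0.06 ± 0.35 (adjusted p = 0.964). Rrm1 (0.96 ± 0.56, adjusted p = 0.43) and Mcm6 (1.61 ± 0.56, adjusted p = 0.175) were the next smallest. The share of endothelial-like nuclei with at least 2 G2/M genes was 0.943 and 0% before injury, 15.4% of 39 and 18.2% of 66 at day 3, 9.70% on day 5 and 6.41% on day 7. Within them the cluster led by Adgrl4 and Kit had the most, with 5 of 22 and 6 of 26 nuclei at day 3 and 12 of 76 at day 5. When the day 3 changes of stromal and endothelial-like nuclei were set against each other in 1 fit, none of 37 genes differed by edgeR's quasi-likelihood test, with 5 at an unadjusted p under 0.05, and none of the 16 that DESeq2 tested, where 2.01% of 8840 genes had a larger change in the stroma and 2.6% a smaller one. Without uninjured library 2, 1 gene was called, with the smaller change in the stroma.

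**Figure D5:**
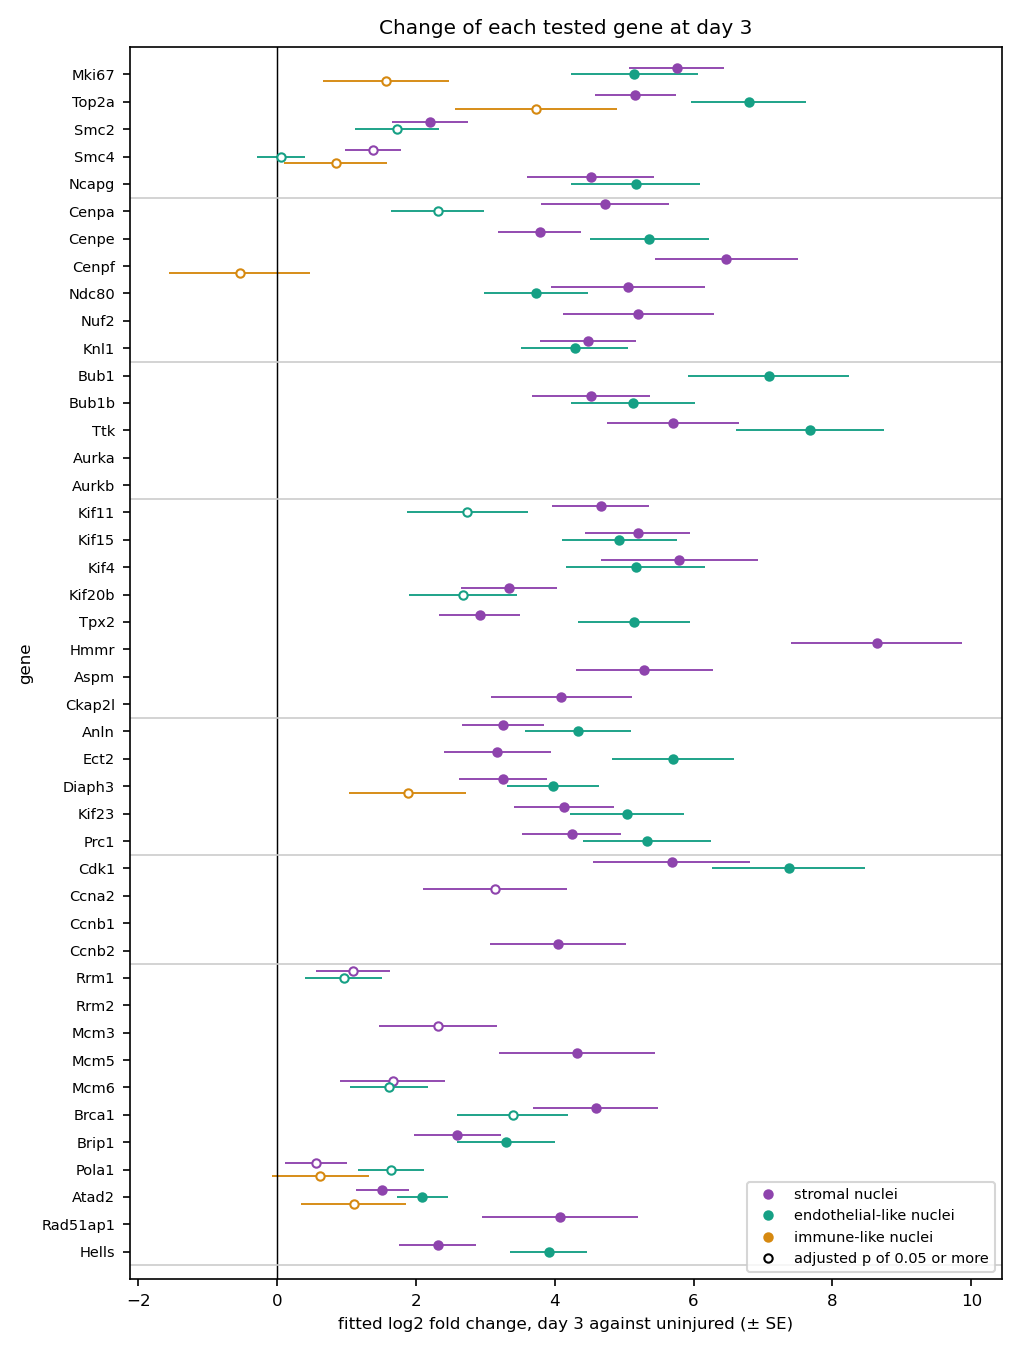
Fitted log2 fold change of day 3 against uninjured for each gene tested, with its standard error, in stromal (purple), endothelial-like (green) and immune-like (orange) nuclei, where open circles have an adjusted p of 0.05 or more. The stromal and endothelial-like points lie to the right of 0, down to 0.06 for Smc4 in endothelial-like nuclei, and the immune-like point of Cenpf lies at -0.54.

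In immune-like nuclei no gene of the list passed the test. The summed G2/M level was 66.4 and 515 CPM before injury, 1690 and 603 at day 3, 559 on day 5 and 387 on day 7. The uninjured libraries held 24 and 89 of these nuclei, and the level of uninjured library 2 was close to that of day 3 library 2. Only 7 of the 44 genes passed the filter, of which none was called by edgeR or by DESeq2 and 2 had an unadjusted p under 0.05, and the fit without a filter called none of 44 with 11 under 0.05. In this comparison 0% of all 5569 genes tested rose and 0.539% fell, and without a filter 0.0101% of 19800 genes rose. Both day 3 libraries lay above both uninjured ones for 30 of the 44, against 19% of the genes tested. Top2a had the largest change, from 0 and 6.86 CPM to 114 and 49.4 (log2 fold change 3.73 ± 1.17, adjusted p = 0.185), followed by Diaph3 (1.88 ± 0.85) and Mki67 (1.58 ± 0.91). Cenpf, at 0 and 44.6, then 41.3 and 13.1, was the one tested gene with a negative value (-0.54 ± 1.01).

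The day 3 change was larger in stromal than in immune-like nuclei for 5 of 28 genes tested, where 1.47% of 7745 genes differed in that direction and 0.594% in the other. They were Cenpf (difference in log2 fold change 7.51 ± 1.24, adjusted p = 1.72e-06), Cenpa (4.42 ± 1.32, adjusted p = 0.0427), Mki67 (4.37 ± 1.14, adjusted p = 0.0127), Knl1 (3.87 ± 1.09, adjusted p = 0.0272) and Kif20b (3.51 ± 1.02, adjusted p = 0.0352). The comparison rests in part on the 24 immune-like nuclei of uninjured library 1. The count was 11 without that library, 0 without uninjured library 2, 1 without day 3 library 1 and 0 without day 3 library 2, and it was 1 with DESeq2 and 1 without a filter. Without uninjured library 2 the median difference over the genes tested also turned, from 1.94 to -3.61 on the log2 scale. Stromal nuclei made up 31.3% and 18.6% of the nuclei with 500 UMIs at day 3 but 41.3% and 33.8% of those positive for at least 2 G2/M genes, and immune-like nuclei made up 45.4% and 70.9% of all but 31.7% and 49.3% of the positive ones.

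Among immune-like nuclei, macrophage and monocyte-like nuclei were positive in 7.03% of 128 and 1.77% of 451 at day 3, 3.23% on day 5 and 2.04% on day 7. The value of day 3 library 2 lay below the muscle background of that library (4.07%), so that this share cannot be told apart from that background. Whether the muscle nuclei were free of dividing cells was not tested. Neutrophil-like nuclei were positive in 9 of 27 (33.3%) and 56 of 403 (13.9%, interval 10.7 to 17.7%) at day 3, at median depths of 1621 and 1172 UMIs. Circulating neutrophils are known not to divide, whereas their precursors in marrow do. Most of the positive nuclei were in the cluster led by Csf3r, Sorl1 and Pag1, with 37.5% of 24 and 18.1% of 237 at day 3, and the cluster led by S100a9 and S100a8 had 7.83% of 166 in day 3 library 2. The positive neutrophil-like nuclei of day 3 held 3921 and 5541 CPM of the 52 other G2/M genes, against 1492 and 979 in the rest. With cell cycle scores not regressed, a separate neutrophil-like cluster of 23 nuclei led by Camp and Ngp held 5 and 17 nuclei of day 3. Whether these were the positive nuclei was not tested. Without the neutrophil-like nuclei the immune-like share was 8.21% and 2.01% at day 3. Of 16 and 22 osteoclast-like nuclei at day 3, 6 and 2 were positive, and 0 of 27 at day 5 and 0 of 21 at day 7, which allow shares of up to 11.1% and 14.3%.

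RNA of other cell types moved with injury in the stromal nuclei too. Markers of macrophages, 7 genes, summed to 8.84 and 43.4 CPM in uninjured stromal nuclei, 201 and 486 at day 3, 256 on day 5 and 323 on day 7, with 2 and 6 of 7 detected before injury, when Adgre1 was at 0 in both libraries, and all 7 detected after it. Markers of neutrophils, 6 genes, summed to 8.84 and 5.34, then 16.3 and 147, 7.29 and 1.97. Endothelial markers went the other way, from 186 and 93.4 to 21.7 and 44.1. Muscle markers stood at 548 and 561 before injury and 296 and 328 at day 3. The G2/M level at day 3 was 1280 and 367 CPM in macrophage and monocyte-like nuclei and 3534 and 1711 in neutrophil-like nuclei, beside the 2540 and 1912 of stromal nuclei. The part of this RNA in the change of the cell cycle genes was not tested.

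Genes of the cell cycle outside the list, grouped by role, were read in the same tests. In stromal nuclei 29 of the 41 other G2/M genes that passed the filter, out of 52, rose and none fell. Of all 9712 genes tested, 4.21% rose. The median log2 fold change of the 41 was 3.57, and Cep55, Kif14 and Dlgap5 changed most. All 3 were at 0 in both uninjured libraries and Cep55 was at 40.8 and 24.6 CPM at day 3. Such genes could enter the test only by differing, and a fit without a filter was not read for these lists, so the counts do not bear on the full lists. Of 41 tested other S phase genes 11 rose, with a median of 1.90 and with Mcm10, Cdc6 and Uhrf1 the largest. Of the G1 cyclins, their kinases and E2F factors, 1 of 9 tested rose, the activator E2f3, from 26.5 and 40.7 to 228 and 249, then 181 and 157 CPM (log2 fold change 2.70 ± 0.38, adjusted p = 0.00314). None of 10 tested inhibitors and quiescence genes passed in stromal nuclei, with 4 at an unadjusted p under 0.05. Rbl2 (-1.26 ± 0.43, adjusted p = 0.105), Rb1 (-1.13 ± 0.33, adjusted p = 0.0618) and Cdkn1b (-1.07 ± 0.43, adjusted p = 0.166), brakes on cell cycle entry, had the lowest values.

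In endothelial-like nuclei 10 of 20 tested other G2/M genes rose, led by Sgo2a, Depdc1b and Cdca2, and 7 of 25 other S phase genes, among them Dtl and Mcm10. Of all 7169 genes tested there, 1.95% rose. Sgo2a, Dtl and Mcm10 were at 0 in both uninjured libraries, so the same limit of the filter holds. E2f3 rose there (log2 fold change 1.46 ± 0.31, adjusted p = 0.0412), and Ccnd3, a G1 cyclin, fell from 406 and 215 to 86.6 and 98.3 CPM (-1.86 ± 0.41, adjusted p = 0.0447). In all kept nuclei 26 of 49 other G2/M genes and 8 of 50 other S phase genes rose, with Pbk and Uhrf1 the largest of each, as did E2f2 and E2f3. There 2.89% of all 12668 genes tested rose. No inhibitor passed in either, with 1 of 8 tested in endothelial-like and 2 of 13 in all kept nuclei at an unadjusted p under 0.05.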

How the data were processed

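Single-nucleus RNA-seq (10x Genomics) was carried out on nuclei of mouse tibial periosteum, with hematoma or callus after fracture. The deposited values are UMI counts per gene and barcode that the authors made with Cell Ranger 6.0.0 (uninjured library 1, day 5 and day 7) or 7.1.0 (the others), with no normalization. Reads were mapped to mm10 by the authors, introns and exons included. The annotations differed, and the 30406 genes common to all 6 libraries were used, which hold 98.9 to 99.8% of the UMIs. All columns of the count matrices belonged to samples of the series.

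Barcodes were kept when they held 200 to 5000 genes and when mitochondrial transcripts stayed below 2%, and ribosomal ones below 1.5%, of their UMIs, and nuclei with myogenic markers were removed. Of the deposited barcodes, these limits removed 2592 of 4712 in day 3 library 2 and 2096 of 3448 at day 7 for their ribosomal or mitochondrial share. Nuclei were normalized, regressed on cell cycle scores and clustered in Seurat 5.3.0 (2000 variable genes, 20 components, resolution 1.3). Cell cycle and marker genes were left out of the variable genes. Clusters were named "-like" from marker genes by thresholds set after the clusters had been seen. Scrublet marked 32 nuclei in all, too few to be informative, so doublets were kept, and the alternative left out the 6% of nuclei with the highest doublet score in each library.

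UMIs were summed per library and population and tested with edgeR 4.0.16 (quasi-likelihood, TMM, low counts filtered with filterByExpr, Benjamini-Hochberg adjustment over all genes tested, threshold 0.05). Samples were grouped by their labels, and day 3 (2 libraries) was compared with uninjured (2 libraries). Days 5 and 7 had 1 library each and no test. The scripts were tested on simulated data. The fold of a gene at 0 before injury was computed against 3 UMIs over the uninjured group. Intervals are 95% exact Poisson or Clopper-Pearson intervals, and the limit given for a count of 0 is 3 counts of the total. Both cover counting error only. Shares were read after 500 UMIs were drawn from each nucleus, without the 23 kept nuclei below that depth. Alternatives were DESeq2 1.42.0, no filter, each library left out, other depths and thresholds, and other clusterings. Scaling by library totals was added after the data were seen.

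Any gene of the list could be named. Values per library were given for 18 genes chosen for their roles and for the 3 largest and 3 smallest changes in each population, and from other lists for called genes and the 3 largest changes in each direction. The value of 1 gene of another list is not reported here. The genes and lists were chosen with earlier results of these data known.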

Additional observations from a re-analysis of the deposited data

Results flagged for a closer look

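The difference between the day 3 change in stromal and in immune-like nuclei passed edgeR's quasi-likelihood test of the difference itself for 5 of 28 genes. It was 7.51 on the log2 scale for Cenpf, 4.42 for Cenpa, 4.37 for Mki67, 3.87 for Knl1 and 3.51 for Kif20b. Uninjured library 1 held 24 immune-like nuclei with a median of 570 UMIs. Without uninjured library 2 or without day 3 library 2 none of the 5 differences was called, nor any other of the list, and without uninjured library 2 the median difference over the genes tested was -3.61 in place of 1.94.

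The other results concern barcodes outside the comparisons. Of the barcodes removed for their ribosomal or mitochondrial share, 20.9% of 2538 in day 3 library 2, 14% of 100 at day 5 and 45.8% of 2072 at day 7 held at least 2 G2/M genes among 500 drawn UMIs, against 1.2% of 250 in uninjured library 2 and 0 of 10 in uninjured library 1, which allows a share of up to 30%. The share among the removed barcodes of day 7 was above the 4.65% of the kept nuclei, and day 3 library 1 had no such barcodes. Their median depth was 610 and 777 UMIs in day 3 library 2 and day 7. Which cells these barcodes came from was not tested.

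Of the barcodes with over 5000 genes that met the ribosomal and mitochondrial limits (245 of 400 in day 3 library 2 and 6 of 7 in uninjured library 2), 25.7% of 245 in day 3 library 2 were positive, against 1 of 6 in uninjured library 2. In the myogenic-like cluster led by Gm28653 and Pax7, 22.2% of 27 nuclei in day 3 library 1 and 16.4% of 67 at day 5 were positive, against 0 of 9 and 0 of 27 before injury, which allow up to 33.3% and 11.1%.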

How the results depend on the processing

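Of 93 alternatives over 9 results, 63 stayed within 1.5 times the reported count or within the spread between libraries, 30 moved further and no called count or share turned its direction, and the cause was not tested. The median difference over the genes tested did turn for stromal against immune-like nuclei without uninjured library 2 (from 1.94 to -3.61) and for stromal against endothelial-like nuclei without day 3 library 2 (from -0.63 to 0.097) and with no upper limit on genes (1.01). Leaving out 1 library moved the counts of called genes over 0 to 27 in all kept nuclei, 0 to 30 in stromal, 0 to 16 in endothelial-like and 0 in immune-like nuclei, and those of differing changes over 0 to 11 for stromal against immune-like nuclei and 0 to 1 for stromal against endothelial-like nuclei. The zeros came without uninjured library 1 in all kept and stromal nuclei, when 11 and 8 of all genes were called, and without day 3 library 2 in endothelial-like nuclei. A lone library was assumed to vary like the pair of the other group. For stromal against immune-like nuclei the count of 5 became 1 with DESeq2, 1 without a filter on low counts, 8 with no upper limit on genes and 3 with doublets removed. DESeq2 called 25 in stromal and 18 in endothelial-like nuclei.

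The day 3 difference in the share of stromal nuclei with at least 2 G2/M genes, 20.4 points, became 30.2 with 1000 UMIs drawn, 48.3 with no thinning, 10.9 when 1 more gene was asked for and 22.9 with no upper limit on genes. For at least 1 S phase gene, 11.5 points became 28.7 with no thinning, 3.92 with 1 more gene, 14.9 with no upper limit, 12.7 with doublets removed, 13.05 with cell cycle scores not regressed and 12.1 at resolution 0.8. In all kept nuclei 13.4 points became 19.7, 33.1 and 7.41 with 1000 UMIs, no thinning and 1 more gene. Left-out libraries gave 17.9 to 22.9, 11.1 to 11.9 and 9.63 to 17.2 points. Day 3 was compared with uninjured without pairing, because the labels pair no library of one group with one of the other. The fits that set stromal against immune-like or endothelial-like nuclei compared them within each library.

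Depth limits the sparse genes, of which 3 had no UMI and 19 had 1 to 3 in uninjured stromal nuclei. No software version held both day 3 and a later day, so that version and time cannot be told apart between day 3 and days 5 and 7.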

Other observations

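The genes of the list were also found in nuclei that markers did not name. In the cluster led by the tendon genes Tnmd, Mkx and Thbs4, the summed G2/M level was 0 and 118 CPM before injury, 2873 and 543 at day 3, 2027 on day 5 and 260 on day 7. Of its nuclei 0 of 49 held at least 2 G2/M genes in uninjured library 2, 4 of 18 and 4 of 28 did at day 3, 11 of 96 at day 5 and 1 of 55 at day 7.

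Pairs of genes were also read in the same nucleus. In nuclei of day 3 with a Top2a UMI among 500, Diaph3 was seen in 9 of 20 in library 1 and 14 of 52 in library 2, against 10.1% and 4.12% of nuclei without Top2a, and on day 5 in 18 of 56 against 5.72%. Mki67 was seen in 2 of 20 and 6 of 52 of these Top2a nuclei, against 2.69% and 3.03%. These shares come from few nuclei, which share their library and depth.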
